A study of Mus musculus with 6 samples.

Results

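The mitochondrial genome encodes 13 of the proteins of the respiratory chain. The 6 mRNAs described here are those for cytochrome c oxidase (complex IV: mt-Co1, mt-Co2 and mt-Co3), for ATP synthase (complex V: mt-Atp6 and mt-Atp8) and for cytochrome b (complex III: mt-Cytb). They were taken by name, as 6 of the 32285 genes counted, and were followed across cell classes set by marker genes and across diet in single-cell RNA-seq of whole mouse testis. The remaining 7 mitochondrial mRNAs encode subunits of complex I and serve for comparison.

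The mice were males, 8 weeks old, labelled C57BL/6 wildtype (C57BL/6N in the study's methods). For 2 weeks they had been fed either High Fat Diet (HFD, 3 libraries) or Low Fat Diet (LFD, 3 libraries), with no other treatment named. Diet was assigned from the GEO titles. In all 6 cases the deposited file name names the other diet, as do the barcode numbers listed by the study, so the groups are called libraries labelled HFD and libraries labelled LFD, and every diet difference below would change sign if the file names are right.

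Cytochrome c oxidase passes electrons to oxygen, and MT-CO1, MT-CO2 and MT-CO3 form its catalytic core. Cytochrome b is the only mitochondrially encoded subunit of complex III, which passes electrons on to cytochrome c. MT-ATP6 and MT-ATP8 belong to the membrane part of ATP synthase, through which protons return to the matrix. The 6 mRNAs lie on the same strand and are cut, together with tRNAs and rRNAs, from long precursor transcripts. During spermatogenesis mitochondria change shape and the germ cell comes to depend on lactate from Sertoli cells, while late spermatids shed most of their cytoplasm.

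The reads of these libraries were counted at the 3′ end of polyadenylated RNA, so the annotated gene ends are shown first, from GENCODE on GRCm38. The end of mt-Atp8 is that of a reading frame inside the joint ATPase mRNA described below, not an mRNA end. Each line gives the last 60 bases, with the encoded bases of the stop codon in capitals. Only 1 such base is encoded for mt-Co3 and mt-Cytb, whose stop codons are completed by the poly(A) tail, and 3 for the other 4.

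mt-Co1: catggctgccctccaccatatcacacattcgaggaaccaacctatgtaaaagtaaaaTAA
mt-Co2: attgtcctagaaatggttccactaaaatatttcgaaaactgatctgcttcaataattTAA
mt-Co3: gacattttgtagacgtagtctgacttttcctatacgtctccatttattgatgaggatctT
mt-Atp6: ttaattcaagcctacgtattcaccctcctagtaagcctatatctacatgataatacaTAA
mt-Atp8: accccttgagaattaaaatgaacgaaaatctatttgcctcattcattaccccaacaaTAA
mt-Cytb: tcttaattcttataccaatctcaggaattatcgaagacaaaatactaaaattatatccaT

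On the plus strand of chromosome M, mt-Co1 (ENSMUSG00000064351) runs from 5328 to 6872, mt-Co2 (ENSMUSG00000064354) from 7013 to 7696 and mt-Co3 (ENSMUSG00000064358) from 8607 to 9390. mt-Atp8 (ENSMUSG00000064356) runs from 7766 to 7969, mt-Atp6 (ENSMUSG00000064357) from 7927 to 8607 and mt-Cytb (ENSMUSG00000064370) from 14145 to 15288. None has an intron. The reading frames of mt-Atp8 and mt-Atp6 share 43 bases, which are 21.1% of mt-Atp8, and the end of mt-Atp6 and the start of mt-Co3 share 1 base. Both ATPase frames are carried by 1 joint mRNA, so a read that lies in the 43 shared bases, shown in capitals, cannot be given to either frame alone. The whole mt-Atp8 frame is:

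mt-Atp8: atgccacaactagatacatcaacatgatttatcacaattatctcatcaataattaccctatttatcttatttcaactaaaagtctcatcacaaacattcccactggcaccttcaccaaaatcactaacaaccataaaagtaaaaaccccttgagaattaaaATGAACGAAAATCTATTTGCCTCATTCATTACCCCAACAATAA

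The 6 libraries held 48939 barcodes and between 39196921 and 95845514 UMIs (unique molecular identifiers, each standing for 1 captured RNA molecule). The 6 mRNAs took 2.17% of all UMIs, between 1.49% and 3.92% by library, and 84.0% of the UMIs of the 13 mitochondrial mRNAs. Haemoglobin transcripts lay at 0.0649 and 0.0835 CPM (UMI counts scaled to a common library total) in the libraries numbered 1 and between 30.6 and 99.8 in the others, so the replicate 1 libraries stood apart in both diets. Between 12 and 28 barcodes were shared by any 2 libraries (at most 0.320% of the smaller). Marker UMIs put 10967 barcodes (22.4%) in a class. In 9 classes every library held at least 20 barcodes, and in these the class's own markers were highest in 14 of 16 cases for spermatogonia, 12 of 12 for early meiotic, 4 of 7 for pachytene and 6 of 7 for late spermatocytes, 8 of 8 for early round, 7 of 8 for later round and 11 of 11 for elongating spermatids, and 11 of 11 each for Sertoli cells and macrophages. The same markers had set the classes, so these counts are not an independent check of them. The protamine gene Prm1, a spermatid gene, stood at 11602 CPM in Sertoli and 6099 CPM in macrophage barcodes against 69864 CPM in elongating spermatids. The part of such free RNA in the levels below was not tested.

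The first question was how much of each class's RNA the 6 mRNAs made up. In UMIs pooled per library, their summed level was highest in Sertoli cells and spermatogonia, the diploid cells at the base of the tubule, and became lower along the germ line down to the spermatids. In spermatogonia it lay between 4.32% and 6.70% of UMIs, with a median of 5.46% and a mean of 5.49% ± 0.81 (SD, n = 6 libraries). In early meiotic spermatocytes, where homologues begin to pair, it lay between 4.01% and 5.68% (median 4.63%). In pachytene spermatocytes it lay between 1.98% and 5.48% (median 3.08%), the widest relative spread among the germ cells before the spermatids. Late spermatocytes, at the meiotic divisions, held 0.893% to 1.37% (median 1.04%), below all 6 pachytene values. Early round spermatids held 0.704% to 0.950% (median 0.849%). Since fewer mitochondrial RNAs per cell and more of other RNAs give the same share, the 2 cannot be told apart in these counts.

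Later round spermatids held 0.0694% to 0.222% (median 0.128%) and elongating spermatids 0.117% to 0.499% (median 0.164%). These 2 ranges overlap. Erythroid barcodes, whose mature cells hold no mitochondria, gave 0.126% over 10 barcodes (exact Poisson interval 0.0908% to 0.170%, counting error only), at a median of 3610.5 UMIs per barcode against 33082 in later round and 9896 in elongating spermatids. These 10 barcodes came from 4 libraries, with none in HFD replicate 1 or LFD replicate 1. The pooled value over all later round barcodes (0.138%) lay within that interval and that over all elongating barcodes (0.183%) above it. Per barcode the median was 7 UMIs of the 6 mRNAs in later round, 1 in elongating and 2 in erythroid barcodes, counts that depend on these unlike depths. As a share of its UMIs, the median barcode held 0.0314% in later round and 0.0132% in elongating spermatids. In barcodes of 1000 to 5000 UMIs, nearer the erythroid depth, the median over libraries was 0.927% in later round (0.275% to 1.56%) and 0.637% in elongating spermatids (0.337% to 1.89%), above the erythroid interval. The part of free RNA in these low levels was not tested.

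Among somatic cells, Sertoli cells, which nurse the germ cells, held 5.16% to 20.6% (median 7.51%). The highest value belonged to LFD replicate 3, and the mean was 9.56% ± 5.58 with that library and 7.35% ± 1.55 (SD, n = 5) without it. A minority of barcodes carried this level. The median Sertoli barcode held 1.86% (0.939% to 4.71% by library), with 42 UMIs of the 6 mRNAs, while the 90th percentile was 15.6%. The median barcode held more in spermatogonia (4.66%), early meiotic (4.84%) and pachytene spermatocytes (2.30%). Macrophages held 1.04% to 2.72% (median 1.68%). Peritubular and stromal cells, the contractile and connective cells around the tubule, could be read in 5 libraries of at least 10 barcodes and held 2.83% to 5.09%.

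**Figure D1:**
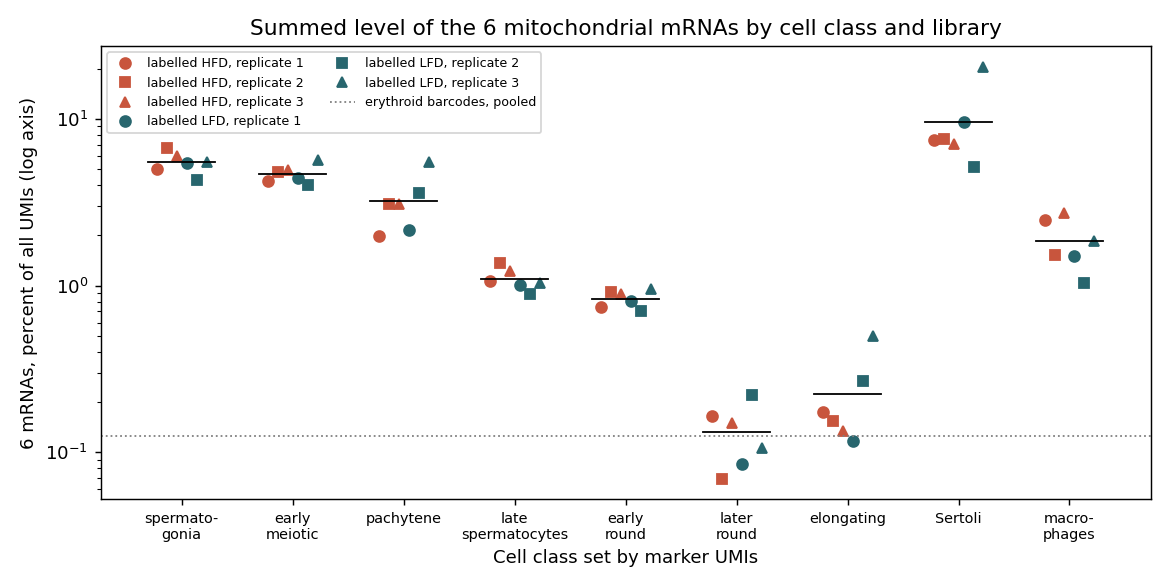
Summed level of the 6 mRNAs in percent of all UMIs (log axis) by cell class; each point is 1 library, coloured by labelled diet and shaped by replicate, the bar is the mean of 6 libraries, and the dotted line is the pooled erythroid value of 0.126%. The values go down from spermatogonia (4.32% to 6.70%) to early round spermatids (0.704% to 0.950%), and later round spermatids lie around the dotted line.

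The classes were then ordered by their mean log2 level. A two-sided exact sign-flip permutation test over the 6 libraries, whose smallest possible p is 0.03125, was adjusted over 252 comparisons of classes. For pooled UMIs, Sertoli cells exceeded spermatogonia by 1.58-fold in 6 of 6 libraries (exact p = 0.03125, adjusted p = 0.0368), while the median barcodes stood the other way (1.86% against 4.66%). Early meiotic spermatocytes exceeded pachytene spermatocytes by 1.53-fold, and late spermatocytes exceeded early round spermatids by 1.31-fold, each in 6 of 6 libraries with the same p. 3 pairs of neighbours in the order did not pass. Spermatogonia exceeded early meiotic spermatocytes in 5 of 6 libraries (1.17-fold, exact p = 0.0625, adjusted p = 0.0694), pachytene spermatocytes exceeded macrophages in 5 of 6 (1.73-fold, exact p = 0.09375, adjusted p = 0.10), and elongating exceeded later round spermatids in 5 of 6 (1.59-fold, exact p = 0.09375, adjusted p = 0.10). In all, 33 of 36 pairs of classes passed for the sum. For single mRNAs the count was 33 for mt-Co1, 30 for mt-Co2, 31 for mt-Co3, 31 for mt-Atp6, 27 for mt-Atp8 and 29 for mt-Cytb.

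The pooled level depended on how deeply the barcodes of a class were sequenced. Pachytene barcodes of 1000 to 5000 UMIs held a median over libraries of 30.8% (54 barcodes), against 2.10% in those of at least 20000 UMIs (603 barcodes). The median per barcode ranged from 1.90% to 16.6% between libraries. LFD replicate 3, with the highest pachytene level, had 60% of its 40 pachytene barcodes under 10000 UMIs, against 3.81% of 236 in HFD replicate 1, which had the lowest. The part of depth in the level was not tested further. With only barcodes of at least 10000 UMIs, an alternative chosen after the data were seen, the means were 5.11% in spermatogonia, 3.69% in early meiotic, 2.32% in pachytene and 1.06% in late spermatocytes and 0.829% in early round spermatids, in the same order. When barcodes were averaged one by one, pachytene lay above early meiotic spermatocytes (0.21 on the log2 scale, exact sign-flip adjusted p = 0.598), and the step from late spermatocytes to early round spermatids (-0.49, adjusted p = 0.0791) no longer passed. With a minimum of 2000 UMIs the step from early meiotic to pachytene spermatocytes no longer passed either (-0.55, adjusted p = 0.0999).

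The oxidase mRNAs made up most of the sum in every class. mt-Co1 stood at a mean of 12917 CPM in spermatogonia (lowest 10259, highest 15885), 5571 CPM in pachytene spermatocytes, 2822 CPM in late spermatocytes and 1706 CPM in early round spermatids. mt-Co2 stood at 9505, 7508, 2878 and 2110 CPM in the same classes, and mt-Co3 at 15175, 9675, 2835 and 2276 CPM. All 3 were lowest in later round spermatids, at 274, 324 and 359 CPM.

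The counts of the ATPase frames, both carried by the same mRNA, differed widely. mt-Atp6 stood at a mean of 12518 CPM in spermatogonia, 6667 in pachytene and 2109 in late spermatocytes and 1843 in early round spermatids. mt-Atp8 stood at 144 CPM in spermatogonia (105 to 227), 60.3 in pachytene and 15.9 in late spermatocytes and 12.2 in early round spermatids. mt-Atp8 had the lowest count of the 6 in every class.

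mt-Cytb followed another course. It stood at 4658 CPM in spermatogonia (3643 to 5737) and 5263 CPM in early meiotic spermatocytes (4443 to 6370). It then stood at 2777 CPM in pachytene spermatocytes (1493 to 5101) and 335 CPM in late spermatocytes (272 to 392), with 409 CPM in early round spermatids (315 to 556). The late spermatocyte values lay below every pachytene value.

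**Figure D2:**
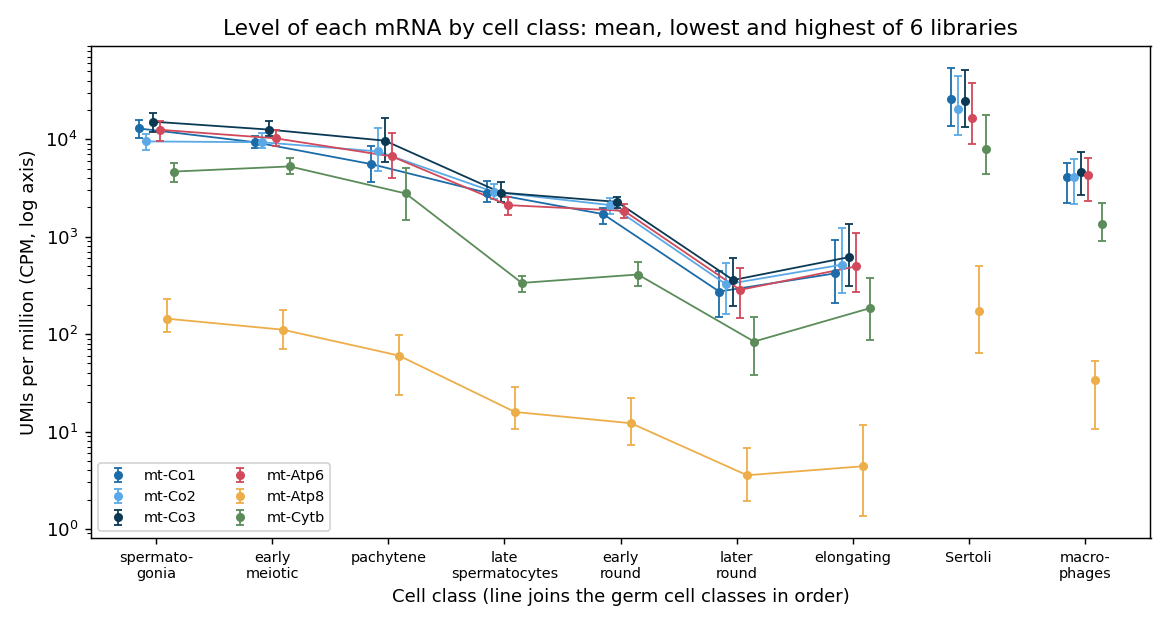
Level of each mRNA in CPM (log axis) by cell class; points are means over 6 libraries, bars run from the lowest to the highest library, and lines join the germ cell classes in order. mt-Cytb (335 CPM in late spermatocytes) has the steepest drop after pachytene. The count of mt-Atp8, carried by the same mRNA as mt-Atp6, lies far below the others throughout.

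Counts per kilobase of mRNA put mt-Co3 (8358 CPM per kb over all barcodes), mt-Co2 (8071) and mt-Atp6 (7310) close together, above mt-Co1 (3078), mt-Cytb (1406) and mt-Atp8 (209). Since 3′ counting counts a molecule once whatever its length, this scale lowers long mRNAs, and it was not used to compare classes. The value of mt-Atp8 is that of a frame within the joint ATPase mRNA, not of a separate mRNA.

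Each germ cell class was next set against the one before it, with edgeR's quasi-likelihood test, the library as a block and Benjamini-Hochberg adjustment over all genes tested. mt-Atp6 and mt-Atp8 were counted apart at every step, though the same mRNA carries both. From spermatogonia to early meiotic spermatocytes, 4 of the 6 mRNAs fell and 1 rose, where 36% of all genes fell and 35.9% rose. mt-Co1 fell by 0.41 on the log2 scale (SE 0.058, edgeR adjusted p = 1.9e-06), mt-Atp8 by 0.33, mt-Atp6 by 0.23 and mt-Co3 by 0.21. mt-Cytb rose by 0.24 (SE 0.063, edgeR adjusted p = 0.0020). Of the 7 complex I mRNAs, 4 also rose and 1 fell (3 and 1 without TMM, a scaling factor described below). mt-Co2 changed by 0.03, which did not pass. With HFD replicate 2 left out, 3 of the 6 passed.

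From early meiotic to pachytene spermatocytes, 4 fell, where 42.5% of genes fell and 41.3% rose. mt-Atp8 fell by 0.74, mt-Cytb by 0.71, mt-Co1 by 0.46 and mt-Atp6 by 0.37. The log2 differences of mt-Co3 (-0.13) and mt-Co2 (-0.06) did not pass. Scaling by library size without TMM, the edgeR factor that centres most genes on no change, moved the median of all genes by -0.35 and all 6 mRNAs then fell.

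The largest step before the spermatids was from pachytene to late spermatocytes, where all 6 fell, beside 40% of all genes that fell and 40.1% that rose. mt-Cytb fell by 2.72 (SE 0.15, edgeR adjusted p = 3.3e-09), which is 6.57-fold. mt-Co3 fell by 1.48, mt-Atp8 by 1.48, mt-Atp6 by 1.37, mt-Co2 by 1.09 and mt-Co1 by 0.73 (SE 0.14, edgeR adjusted p = 0.00023), which is 1.66-fold. Within the libraries, mt-Cytb was between 4.84 and 13.9 times higher in pachytene than in late spermatocytes, and mt-Co1 between 1.36 and 3.35 times. Both highest values belonged to LFD replicate 3, where 60% of the pachytene barcodes had under 10000 UMIs.

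From late spermatocytes to early round spermatids, 4 fell and 1 rose, where 37.8% of genes fell and 33.2% rose. mt-Co1 fell by 0.67, mt-Co2 by 0.40, mt-Co3 by 0.27 and mt-Atp6 by 0.15. mt-Cytb rose by 0.32 (SE 0.069, edgeR adjusted p = 0.00068). Of 6 complex I mRNAs tested, 1 also rose (mt-Nd4, by 0.22) and 3 fell. mt-Atp8, at -0.38, did not pass (edgeR adjusted p = 0.071).

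From early to later round spermatids all 6 fell, where 32.4% of genes fell and 38.3% rose. The fall was 2.83-fold for mt-Atp8, and the other 5 fell by 2.08 to 2.51 (mt-Co2) on the log2 scale. From later round to elongating spermatids all 6 passed as higher, by 0.99 (mt-Atp8) to 2.03 (mt-Cytb), where 37.1% of genes rose and 42.6% fell. Without TMM the median of all genes moved by -0.98 at this step, the 6 differences lay between 0.02 and 1.07, and mt-Atp8 no longer passed. Over all barcodes the pooled level was 0.138% in later round spermatids, within the erythroid interval, and 0.183% in elongating spermatids, above it. The median per barcode went the other way, from 0.0314% to 0.0132%. The other steps moved without TMM by -0.07 (spermatogonia to early meiotic), -0.20 (pachytene to late), -0.04 (late to early round) and -0.31 (early to later round), and no passed direction turned.

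The place of the genes on the mitochondrial genome was compared with the size of their change, over the 12 mRNAs of the plus strand. As a description across genes, which are not independent replicates and share the same libraries, Spearman's rho between the start of the gene and the log2 change from pachytene to late spermatocytes was -0.867. It was between -0.874 and -0.769 in each of the 6 libraries. The complex I mRNA mt-Nd1, which lies first, fell by 1.00 and mt-Co1 by 0.73, while mt-Nd3 fell by 2.40, mt-Nd5 by 1.81 and mt-Cytb, which lies last, by 2.72.

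The next step had the opposite order. From late spermatocytes to early round spermatids rho was 0.874 (0.727 to 0.895 by library), with mt-Nd1 falling by 0.99 and mt-Cytb rising by 0.32. The 2 steps share the late spermatocyte sums, so their orders are not independent. From pachytene straight to early round spermatids, which leaves these sums out, the median rho by library was -0.304 (-0.448 to -0.049). At the remaining steps rho lay between -0.294 and 0.420. In barcodes of at least 10000 UMIs the pachytene to late values were -0.888 to -0.720.

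**Figure D3:**
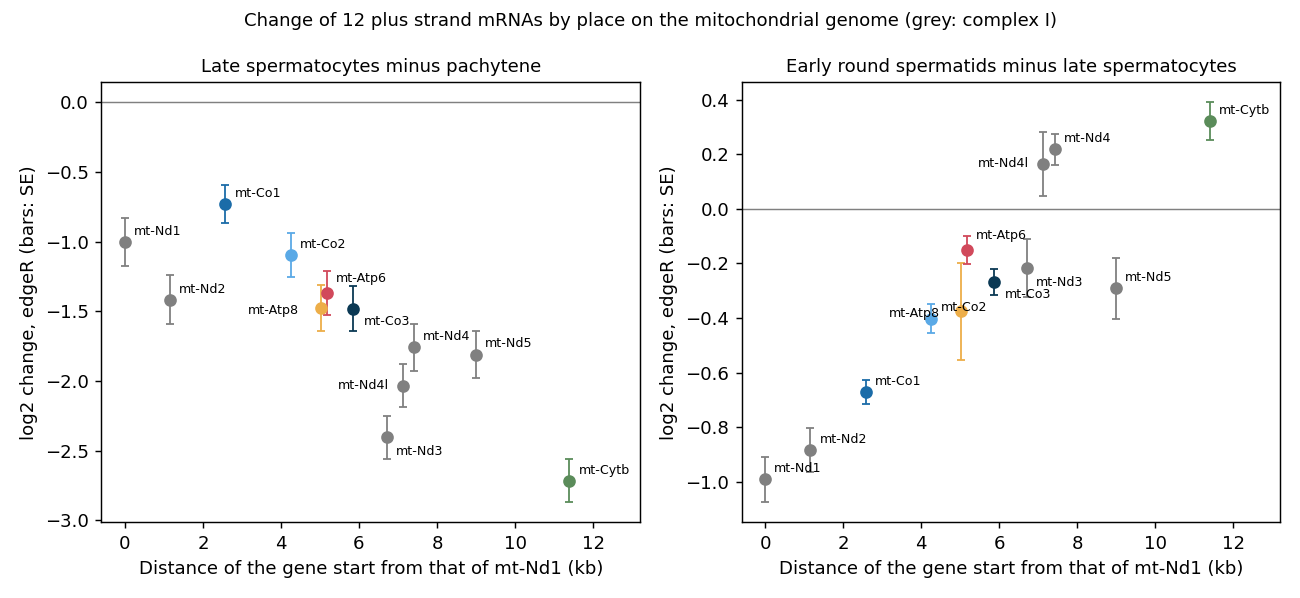
Log2 change (edgeR, bars are SE) of the 12 plus strand mRNAs against the distance of the gene start from that of mt-Nd1 in kb, from pachytene to late spermatocytes (left) and from late spermatocytes to early round spermatids (right); the 6 mRNAs are coloured and the complex I mRNAs grey. On the left the points run down towards mt-Cytb at -2.72, and on the right they run up towards mt-Cytb at 0.32.

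The makeup of the 6 was then measured apart from their level, as the share of each mRNA in the UMIs of the 6. The share of mt-Cytb was 8.47% ± 0.28 (SD, n = 6) in spermatogonia and 11.2% ± 0.23 in early meiotic spermatocytes, and the 2 ranges (8.18% to 8.92% and 10.98% to 11.6%) did not overlap. It was 8.40% ± 0.70 in pachytene spermatocytes, 3.07% ± 0.36 in late spermatocytes and 4.87% ± 0.60 in early round spermatids. From pachytene to late spermatocytes it was lower in 6 of 6 libraries, by 4.64 to 5.75 percentage points (exact sign-flip p = 0.03125, adjusted p = 0.0472 over 792 comparisons). In the same step the share of mt-Co1 went from 17.6% ± 1.35 to 25.6% ± 0.85, higher in 6 of 6 libraries with the same p. The log2 ratio of mt-Co1 to mt-Cytb went from 1.07 ± 0.22 to 3.06 ± 0.20.

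mt-Co2 took 17.4% ± 0.48 of the 6 in spermatogonia, 23.3% ± 0.83 in pachytene and 26.3% ± 0.88 in late spermatocytes. mt-Co3 took 27.6% ± 0.34, 29.9% ± 0.55 and 25.7% ± 0.47 in the same classes. mt-Atp6 ranged by class only from 17.2% (Sertoli cells) to 23.1% (macrophages), and mt-Atp8 from 0.142% to 0.280%. mt-Co1 had its highest share in Sertoli cells, 27.1% ± 1.27. The log2 ratio of the 6 mRNAs to the 7 complex I mRNAs lay between 2.09 ± 0.08 (early meiotic spermatocytes) and 2.70 ± 0.19 (early round spermatids). In all, 524 of 792 comparisons of shares and ratios passed, each at the smallest p that 6 libraries allow. When barcodes were averaged one by one in place of pooling UMIs, none passed, and the smallest sign-flip adjusted p was 0.0509. Comparisons at the smallest possible p have the same adjusted value, so they pass or fail together. This count therefore does not show that the differences were lost.

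**Figure D4:**
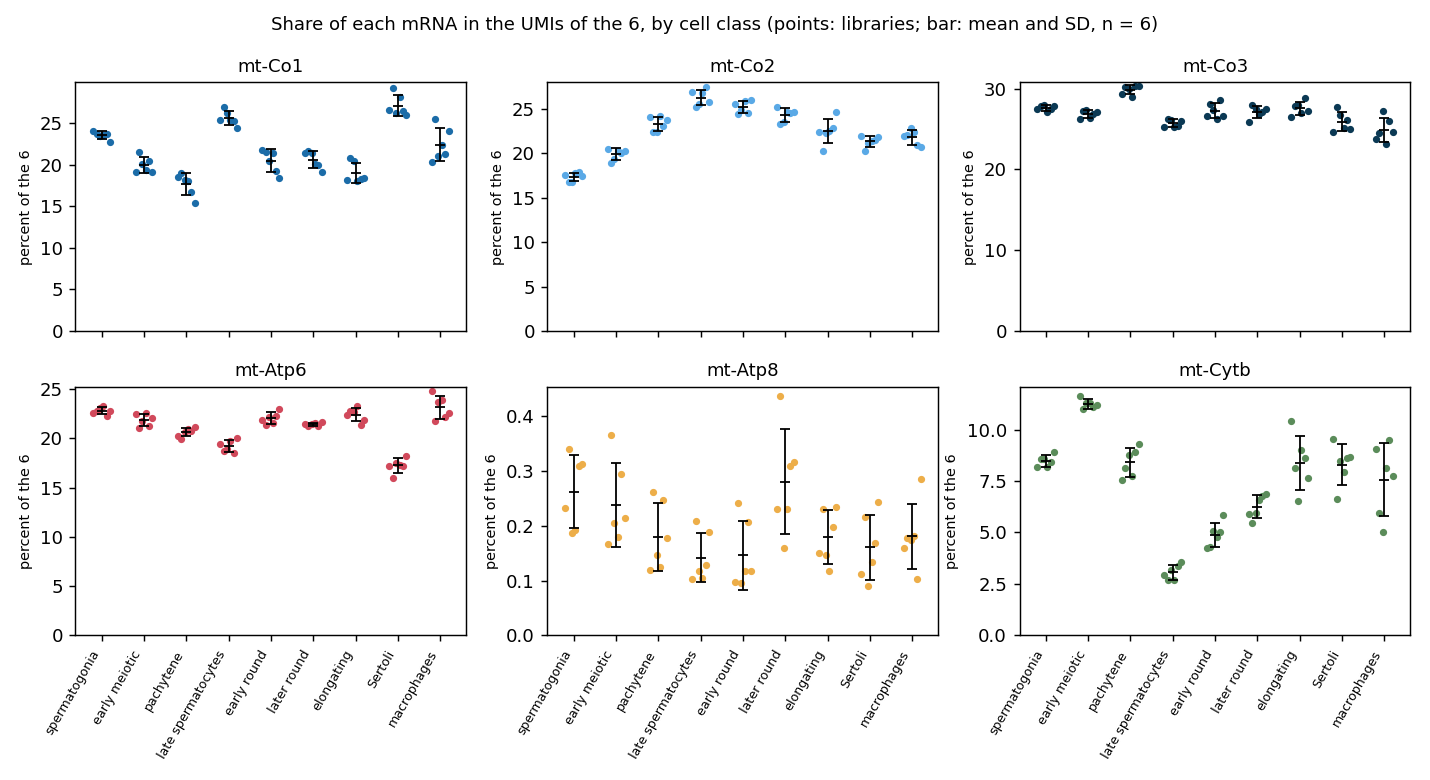
Share of each mRNA in the UMIs of the 6 (percent) by cell class, 1 panel per mRNA; points are libraries and bars are the mean and SD of 6 libraries. mt-Cytb has its highest share in early meiotic spermatocytes (11.2%) and its lowest in late spermatocytes (3.07%), where mt-Co1 (25.6%) and mt-Co2 (26.3%) take more.

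mt-Atp8 and mt-Atp6 are carried by the same mRNA, so their ratio was given by library. Over all barcodes, HFD replicates 1, 2 and 3 held 0.680, 1.15 and 0.661 UMIs of mt-Atp8 per 100 UMIs of mt-Atp6, and LFD replicates 1, 2 and 3 held 0.633, 0.995 and 0.922. HFD replicate 2 had the highest ratio in 7 of 9 classes and LFD replicate 3 in the other 2. HFD replicate 1 and LFD replicate 1, at 0.680 and 0.633, lay close together.

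Fewer single barcodes held mt-Cytb after pachytene. Thinned to 1000 UMIs each, 93.4% of spermatogonia, 93.4% of early meiotic spermatocytes, 82.0% of pachytene spermatocytes, 28.3% of late spermatocytes and 28.0% of early round spermatids held a UMI of mt-Cytb (unthinned 97.2%, 95.7%, 99.0%, 95.9% and 99.0%). The higher CPM of mt-Cytb in early meiotic spermatocytes and early round spermatids, each against the class before, was not seen in these shares. In early meiotic spermatocytes the shares could hardly show it, since 93.4% of barcodes already held a UMI in the class before. For mt-Co1 the thinned shares in the same classes without the early meiotic one were 97.2%, 97.1%, 87.0% and 76.3%. Across the barcodes of a class, Spearman's rho between the levels of mt-Co1 and mt-Cytb had a median over libraries of 0.739 in spermatogonia, 0.811 in pachytene, 0.353 in late spermatocytes and 0.388 in early round spermatids. Between mt-Atp6 and mt-Co3, which lie side by side, it was 0.872, 0.965, 0.857 and 0.893. These values describe barcodes of the same library, which share its depth.

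The nuclear genes for the same complexes moved in both directions. From pachytene to late spermatocytes, 8 of 14 tested complex IV subunits rose and 2 fell, with Cox5a rising by 0.75 and Ndufa4 falling by 2.82 (without TMM 4 rose and 6 fell). Of 9 complex III subunits 4 rose and 4 fell, among them Cyc1, the cytochrome c1 gene, which fell by 2.25 (2 and 5 without TMM). Of 16 complex V subunits 4 rose and 8 fell, with Atp5md rising by 1.27 and Atp5g3 falling by 1.58 (3 and 12 without TMM). Of 22 assembly factors for complexes III, IV and V 6 rose and 13 fell, with Coa3 rising by 1.27 and Cox14 falling by 1.86 (4 and 14 without TMM). All 7 mitochondrial complex I mRNAs fell, with a median of -1.81, against a median of 0.01 over all genes.

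Genes that transcribe mitochondrial DNA or stabilise its RNA moved apart at that step. Of 17 tested, 5 rose and 9 fell (5 and 10 without TMM). Mterf2 rose by 2.13 and Slirp, whose protein stabilises mitochondrial mRNAs together with LRPPRC, by 0.92. Tefm, the mitochondrial transcription elongation factor, fell by 3.10 and Fastkd1 by 3.21. Tfam, whose mitochondrial protein packs mitochondrial DNA and starts its transcription, fell by 1.74 from early meiotic to pachytene spermatocytes. It rose by 2.72 from early to later round spermatids and by 4.61 into elongating spermatids. Counts were per gene and did not separate transcript forms, so whether these changes concern the mitochondrial protein was not tested.

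At the other steps the lists also split. From spermatogonia to early meiotic spermatocytes complex III had 6 up and 3 down of 9, complex IV 7 up and 6 down of 15 and complex V 3 up and 11 down of 16, with Cox6b1 falling by 1.97 and its testis counterpart Cox6b2 rising by 2.58. From early meiotic to pachytene spermatocytes the counts were 6 and 2 of 9, 9 and 4 of 15 and 8 and 4 of 16, and without TMM 4 and 3, 5 and 7 and 3 and 8. From late spermatocytes to early round spermatids they were 1 and 3 of 9, 6 and 4 of 14 and 7 and 7 of 16. From early to later round spermatids they were 0 and 4 of 9, 1 and 7 of 14 and 5 and 4 of 16, and without TMM 0 and 9, 0 and 12 and 4 and 11. From later round to elongating spermatids they were 1 and 4 of 9, 2 and 10 of 15 and 7 and 6 of 16, and without TMM 0 and 9, 0 and 14 and 0 and 14.

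The assembly factors had 8 up and 6 down of 25 from spermatogonia to early meiotic spermatocytes (8 and 8 without TMM), with Coa7 falling by 1.93, and 12 and 8 of 25 into pachytene (9 and 12), with Cox15 falling by 2.93. They had 3 and 9 of 20 from late spermatocytes to early round spermatids (1 and 11), 7 and 10 of 21 into later round (3 and 14) and 6 and 11 of 22 into elongating spermatids (1 and 18). The transcription and stability genes had 4 and 6 of 17 at the first of these steps (2 and 7 without TMM), 3 and 5 of 17 at the second (2 and 10), 2 and 2 of 11 from late spermatocytes to early round spermatids (2 and 3), 1 and 5 of 13 into later round (1 and 10) and 1 and 7 of 14 into elongating spermatids (1 and 13). The share of all genes rising or falling at each step is given above, and none of these counts was tested against it.

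The genes whose level over the 54 sums of a class in a library was most like the summed 6, by Pearson's r of log2 CPM among 9391 genes, were Top1 (0.951), Ssr2 (0.947), Aplp2 (0.941), Trrap (0.940) and Gpatch8 (0.939). The 6 themselves had r between 0.960 (mt-Atp8) and 0.999 (mt-Co3), and the complex I mRNAs between 0.934 and 0.993. No p is given, because the sums share libraries and classes.

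The second question was whether diet changed these mRNAs. With 3 libraries against 3, no member passed edgeR's test in whole testis or in any of the 9 classes, where 0% of all genes passed as well, and DESeq2 gave no member either. mt-Atp8 had too few counts to be tested in macrophages. The SE of the log2 differences lay between 0.089 and 0.35 in late spermatocytes and between 0.11 and 0.40 in early round spermatids, highest for mt-Atp8 in both. It lay between 0.29 and 0.53 in elongating spermatids and between 0.43 and 0.51 in Sertoli cells. The lack of a call therefore does not show that diet left these mRNAs unchanged. At an unadjusted p under 0.05, edgeR had 4 of the 6 in late spermatocytes, beside 283 of all 10239 genes tested there. It had 5 in elongating spermatids (57 of 9834 genes), 1 in Sertoli cells (388 of 8228 genes) and 0 in the other 7 sums. The 6 share libraries and precursor transcripts, so they are not independent of each other. In whole testis the HFD-labelled libraries held 1.49%, 2.17% and 2.59% of UMIs in the 6 mRNAs and the LFD-labelled 1.75%, 2.16% and 3.92%, and the 2 groups overlapped.

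Late spermatocytes had the clearest separation. mt-Co1 stood at 2687, 3694 and 3213 CPM in the libraries labelled HFD and at 2569, 2248 and 2520 CPM in those labelled LFD. mt-Co2 stood at 2844, 3465 and 3137 against 2707, 2452 and 2660 CPM. These 2 mRNAs had groups that did not overlap, as did 9.4% of genes of at least 10 CPM in that class, and 3 against 3 libraries cannot give an exact p under 0.1. The log2 difference of mt-Co1 was 0.36 (SE 0.11, edgeR adjusted p = 0.92). On log2 CPM the 2 replicate 1 libraries differed by 0.06 and the other 4 by 0.53. With HFD replicate 1 left out, mt-Co1 and mt-Co3 passed, among 165 genes (1.61%).

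In elongating spermatids the 6 mRNAs together held 0.174%, 0.153% and 0.134% in the libraries labelled HFD and 0.117%, 0.268% and 0.499% in those labelled LFD. The groups overlapped, with LFD replicate 1 the lowest of all 6 and LFD replicate 3 the highest. The median log2 difference of the 6 was -0.87 in edgeR, and the medians of log2 CPM within replicate 1 (0.57) and within the other 4 libraries (-1.32) had opposite signs. With LFD replicate 1 left out, mt-Co1, mt-Co2, mt-Co3 and mt-Atp6 passed, at -1.37 to -1.14 (12 genes in all, 0.118%). The pooled levels of 0.117% to 0.153% lay within the erythroid interval (0.0908% to 0.170%), and those of 0.174% to 0.499% lay above it.

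The other classes gave median log2 differences of the 6, from edgeR, of 0.17 in spermatogonia, 0.01 in early meiotic and -0.48 in pachytene spermatocytes, 0.02 in early round and -0.14 in later round spermatids, -0.78 in Sertoli cells and 0.66 in macrophages. Outside late spermatocytes no mRNA had groups that did not overlap, where that held for 4.95% of genes of at least 10 CPM in whole testis, 6.73% in spermatogonia, 10.1% in early meiotic and 10.4% in pachytene spermatocytes, 10.7% in early round, 5.73% in later round and 3.96% in elongating spermatids, 8.12% in Sertoli cells and 6.4% in macrophages. In Sertoli cells the libraries labelled HFD held 7.46%, 7.56% and 7.06% and those labelled LFD 9.51%, 5.16% and 20.6%, which enclose them. In pachytene spermatocytes the values were 1.98%, 3.09% and 3.07% against 2.15%, 3.59% and 5.48%. The highest of these came from LFD replicate 3, with 60% of its pachytene barcodes under 10000 UMIs. The part of depth in this difference was not tested.

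**Figure D5:**
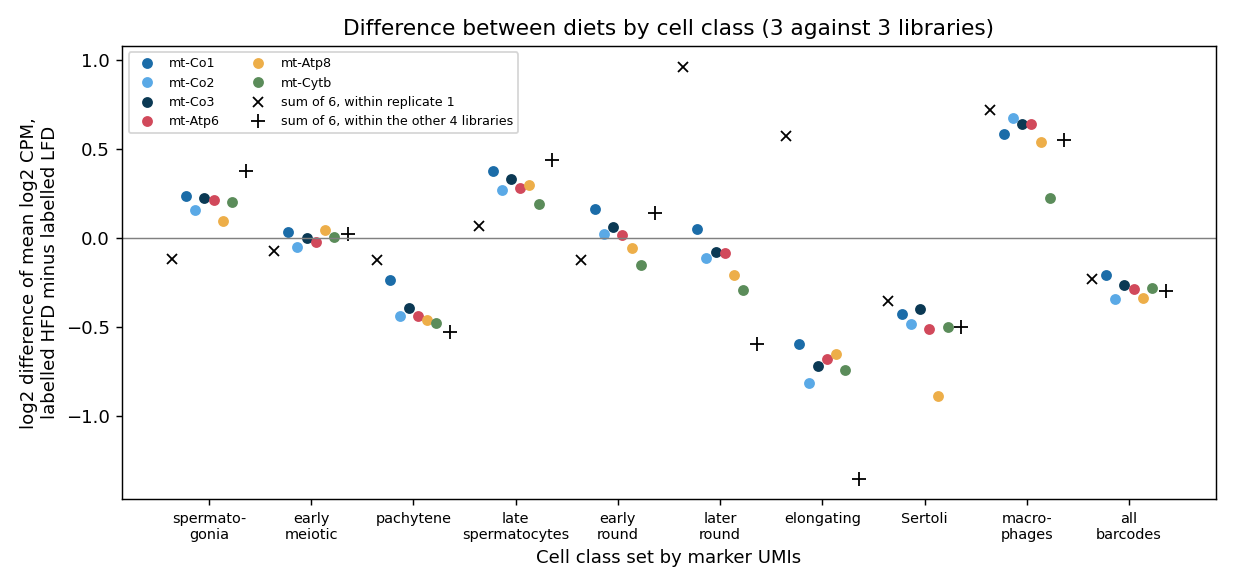
Difference between the diets by cell class, as mean log2 CPM of the libraries labelled HFD minus that of the libraries labelled LFD, for each mRNA (points), with the sum of the 6 within replicate 1 (x) and within the other 4 libraries (+). The values within replicate 1 and within the other 4 libraries have opposite signs in spermatogonia, early meiotic spermatocytes and all 3 spermatid classes, and no mRNA passed in any class.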

How the data were processed

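Single-cell suspensions of whole testis from 6 mice, 3 per diet as the study's methods state, were run on the 10x Genomics 3′ platform, for which labels and methods name different kit versions. The authors aligned reads to mm10 and counted UMIs with Cell Ranger 6.0.1, per the labels, and deposited raw UMI counts for 32285 genes in 48939 barcodes, not normalized. Nothing beyond the titles grouped the libraries. Doublets were neither called nor removed, as the study states no removal.

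A barcode of at least 1000 nuclear UMIs was given a class where its marker UMIs exceeded those of shallow barcodes (under 3000 UMIs) of its library by at least 2-fold (Poisson p under 0.0001) with at least 3 markers seen, and its mean marker score led the next class by 0.1. The rule was set after the data were seen. Members and gene lists were chosen with earlier results of these data known. Counts were summed per library and class, and tested with edgeR 4.0.16 (R 4.3.3, TMM, default filter) and, as alternatives, DESeq2 1.42.0. Levels and shares were tested by exact sign-flip permutation over libraries (SciPy 1.17.1, NumPy 2.4.6). A call was an adjusted p under 0.05. The tests were checked on simulated data. P-values measure the spread between these libraries, 1 per mouse. Intervals cover counting error only.

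The 6 mRNAs are named in every comparison. Of other genes, the text names the 5 nuclear genes of most like pattern (at least 10 CPM) and, from each list (mitochondrial complex I, nuclear subunits of complexes III, IV and V, their assembly factors, mitochondrial transcription and mRNA stability), up to 2 genes per direction and step with the smallest p.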

Additional observations from a re-analysis of the deposited data

Results flagged for a closer look

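Of 73 groups of 6 libraries in which the highest and lowest library were compared with the rest, 2 had a library far from the others by Dixon's criterion (gap over range above 0.625), where chance flags about 1 in 20. The summed level of the 6 mRNAs in Sertoli cells was 20.6% in LFD replicate 3, against 9.51% in the next library (gap over range 0.718). The log2 ratio of the 6 mRNAs to the complex I mRNAs in macrophages was 2.07 in LFD replicate 3, against 2.26 in the next library (gap over range 0.656). Neither cause was tested.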

How the results depend on the processing

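Averaging over barcodes in place of pooling UMIs turned the sign of the summed level from early meiotic to pachytene spermatocytes (0.21 on the log2 scale, exact sign-flip adjusted p = 0.598). It left late to early round spermatids at -0.49 (exact sign-flip adjusted p = 0.0791) and 0% of comparisons of shares past the threshold. Such comparisons pass or fail together, since those at the smallest possible p have the same adjusted value. A minimum of 2000 UMIs gave -0.55 for early meiotic to pachytene (adjusted p = 0.0999), and barcodes of at least 10000 UMIs, added after the data were seen, gave -0.46 for spermatogonia to early meiotic (adjusted p = 0.0338). Without the library block, 1 of the 6 mRNAs passed from spermatogonia to early meiotic spermatocytes, and leaving out 1 library gave 3 to 5. Leaving out 1 library gave 0 to 2 calls by diet in late and 0 to 4 in elongating spermatids. With 5 libraries the sign-flip test cannot reach the threshold, so levels and shares without a library are values with no test. The causes were not tested. Early round spermatids under the stricter gate, and Sertoli cells at the higher minimum, had too few barcodes for a value.

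Same-numbered libraries of the 2 diets did not deviate together in every pair (r = 0.575, -0.036 and 0.107 over 8328 genes), so the numbers were not read as pairs. With the replicate block, 0 of the 6 mRNAs passed in any sum, while 24 genes passed over all barcodes and 8 in pachytene spermatocytes.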

Other observations

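Barcodes that carried no class (37915, median 2440 UMIs) held 63.8% of all UMIs of the 6 mRNAs but 40.6% of all UMIs. Their share was 2.34% to 6.65% by library, and their median per barcode was 5 UMIs of the 6 mRNAs, with a tenth-to-ninetieth percentile range of 0 to 450. Those of 5000 to 10000 UMIs held a median of 7.60% (1318 barcodes) and those of at least 20000 UMIs 0.805% (1626 barcodes). Across these barcodes Spearman's rho between mt-Co1 and mt-Cytb was 0.783 to 0.877 by library, a description of barcodes that share a library and its depth.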
